A study of Mus musculus with 10 samples.

Results

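The dermis of mouse skin lies between the epidermis, the outer epithelial sheet, and the subcutaneous layer of fat and loose tissue, and innate lymphoid cells (ILCs) were sorted from all of these layers. The 4 libraries of dermal ILCs, 2 sorted as CCR6+ and 2 sorted as Sca1+, were set against 6 libraries of flanking layers, 3 epidermal and 3 subcutaneous, out of 10 libraries in all. The groups are dermal CCR6+, dermal Sca1+, epidermal and subcutaneous ILCs. The members were taken from the titles alone, with no measured value involved. The mice were adults of the B6 strain, and the labels name no treatment, genotype or transgene for any group. CCR6 binds the chemokine CCL20, and the Ly6a gene encodes Sca1. Neither the source animal of a replicate nor the number of animals per library is given, so p-values cover only library-to-library spread, part of which may be technical.

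ILCs are tissue lymphocytes that lack rearranged antigen receptors and answer to alarm cytokines, neuropeptides and TNF family ligands made by neighbouring cells. In skin, most belong to the type 2 group, which needs the transcription factors GATA3 and RORα and can secrete IL-5 and IL-13, and some resemble type 3 cells. ICOS, OX40 and CD27 are costimulatory receptors that prolong survival and cytokine secretion of lymphocytes, and CCR8 is a chemokine receptor of skin-homing lymphocytes.

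Library totals lay between 11627222 and 18118544 expected counts, and levels in CPM are shares of the library total after TMM scaling. A floor of 3 counts corresponded to 0.1656 to 0.258 CPM, depending on the library. The ILC genes were present in the dermal libraries: Il7r, the IL-7 receptor, lay between 533 and 602 CPM in dermal ILCs, against 479 to 488 CPM in epidermal and 521 to 588 CPM in subcutaneous ILCs. Gata3 averaged 1640 CPM in dermal, 517 CPM in epidermal and 1600 CPM in subcutaneous ILCs. The 23 T cell genes summed to between 1469 and 2628 CPM in dermal, 1957 and 1984 CPM in epidermal and 865.8 and 1383 CPM in subcutaneous libraries. Transcripts of other cell types were present as well. The 18 keratinocyte genes summed to between 1905 and 2707 CPM in dermal libraries, against 4350 to 12480 CPM in epidermal and 321.2 to 698.9 CPM in subcutaneous libraries, and the 17 fibroblast genes to between 1792 and 4909 CPM in dermal libraries, against 34.9 to 55.44 CPM in epidermal and 3944 to 5782 CPM in subcutaneous libraries. Among the flanking libraries, subcutaneous replicate 2 stood apart with 1535 CPM over 18 type 1 ILC and NK cell genes, against 165.9 and 138 CPM in replicates 1 and 3, and epidermal replicate 1 had the lowest keratinocyte sum of its group. In bulk libraries, fewer cells of a type and less RNA per cell cannot be told apart.

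A gene counted as peaking in the dermis when the dermal libraries were higher than the epidermal ones and also higher than the subcutaneous ones, each at an adjusted p under 0.05, and as dipping when they were lower than both. The dermal value tested was the mean of the terms of both sorts on the log scale, so a sort with no count weighs heavily in it. All adjusted p-values here come from the quasi-likelihood test of edgeR, adjusted after Benjamini-Hochberg over the 16208 genes tested, in 1 model with the 4 groups as terms, and log2 fold changes are given ± SE. By this rule 102 genes peaked (0.629% of the genes tested) and 80 dipped (0.494%). Against the epidermis alone, 1364 genes were higher (8.42%) and 551 lower (3.4%) in dermal ILCs, and against the subcutis alone 523 were higher (3.23%) and 778 lower (4.8%). All 4 dermal libraries lay above all 6 flanking libraries in 348 genes (2.15%), of which 95 were among the peaks (0.586% of all genes tested), and below all 6 in 214 genes (1.32%), of which 54 were among the dips (0.333%). For most genes that changed across the skin, the dermal mean lay in between. Between epidermal and subcutaneous ILCs 3268 genes were called (6.87% of all genes higher and 13.3% lower in the epidermis). Of these, 2600 (79.6%) had a dermal mean log2 CPM between both flanking means, 403 (12.3%) one above both and 138 (4.22%) one below both. Shares over all genes tested were 46.3%, 23.8% and 28.3%. A wide gap between the flanks, by which the 3268 were called, favours a mean inside it. The dermal mean also averages both sorts, which can lie far apart, as for Il5 (273 CPM in CCR6+ and 1720 CPM in Sca1+ ILCs).

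The contrast of the mean of the dermal terms with the mean of the flanking terms called 750 genes higher (4.63%) and 194 lower (1.2%) in dermal ILCs. Of those 750 genes, 102 peaked and 269 (35.9%) had a dermal mean CPM between the flanking means. Of the 194 lower genes, 79 dipped. When the 4 dermal libraries were compared with the 6 flanking libraries as 2 plain groups, so that the difference between the flanks entered the residual spread, 17 genes were higher and 1 was lower. The peaks had a median log2 fold change of 1.62 against the epidermis and of 1.5 against the subcutis. The dips had medians of -5.24 and -5.47, and many were weakly expressed: 36 of them had under 5 CPM in the lower flank, and 19 had no count in any dermal library. Many calls were lost with 1 library fewer: 27 peaks (26.5%) and 25 dips (31.2%) were called in each of the 10 fits that leave out 1 library, whereas 51 peaks and 45 dips were called in at most 5 of them. The number of peaks was lowest, at 47, without dermal Sca1+ replicate 1, and the number of dips ran from 42 without subcutaneous replicate 1 to 150 without dermal CCR6+ replicate 1. Epidermal replicate 1 and subcutaneous replicate 1 carry the numbers 17 and 20 in the deposited names, apart from the others, and without both, 89 genes peaked and 40 dipped.

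**Figure D1:**
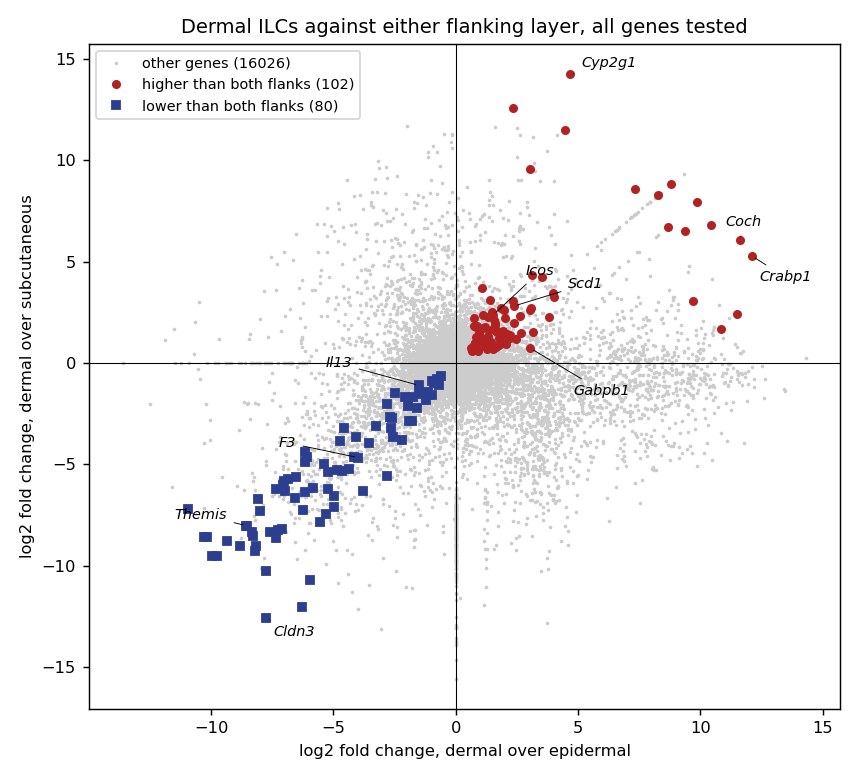
Log2 fold change of dermal over subcutaneous ILCs against that of dermal over epidermal ILCs for the 16208 genes tested. Points are genes, with the 102 peaks as red circles and the 80 dips as blue squares. The peaks lie in the upper right quadrant, with Icos and Scd1 among them, and the dips in the lower left, with Il13 and Themis among them.

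Among the peaks with high levels were genes of lymphocyte costimulation, adhesion and transcription. Icos (ENSMUSG00000026009.14, chr1:60977927-61000320, mm10) had 3960 and 4960 CPM in dermal CCR6+ and 3190 and 3170 CPM in dermal Sca1+ ILCs, against 1550, 1190 and 1140 CPM in epidermal and 640, 834 and 694 CPM in subcutaneous ILCs. Every dermal library thus lay above every flanking library, and both sorts shared the high level. Icos was higher by a log2 fold change of 1.54 ± 0.18 against the epidermis (adjusted p = 0.000372) and of 2.38 ± 0.18 against the subcutis (adjusted p = 9.95e-05). Cd27 (chr6:125232622-125237010), another costimulatory receptor gene, had 209 and 205 CPM in dermal CCR6+ and 201 and 191 CPM in dermal Sca1+ ILCs, against 66.7, 87.4 and 87.4 CPM in epidermal and 33.9, 44.4 and 49.1 CPM in subcutaneous ILCs. The dermal libraries were nearly level with each other (201 ± 7.5 CPM, SD, n = 4), and the log2 fold changes were 1.32 ± 0.19 against the epidermis (adjusted p = 0.00138) and 2.25 ± 0.20 against the subcutis (adjusted p = 0.000185).

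Ikzf3, which encodes the lymphoid transcription factor Aiolos (chr11:98464902-98546031), had 1430 and 1360 CPM in dermal CCR6+ and 1410 and 1190 CPM in dermal Sca1+ ILCs, against 527, 375 and 470 CPM in epidermal and 310, 298 and 322 CPM in subcutaneous ILCs. Its groups did not overlap, and its log2 fold changes were 1.56 ± 0.16 against the epidermis (adjusted p = 0.000238) and 2.12 ± 0.17 against the subcutis (adjusted p = 0.000119). Cytip, a lymphocyte protein that binds the integrin regulator cytohesin-1 (chr2:58129137-58195532), had 1070 and 1200 CPM in dermal CCR6+ and 787 and 830 CPM in dermal Sca1+ ILCs, against 310, 260 and 243 CPM in epidermal and 415, 468 and 393 CPM in subcutaneous ILCs. Here too the lowest dermal library lay above the highest flanking one, with log2 fold changes of 1.82 ± 0.16 (adjusted p = 8.52e-05) against the epidermis and 1.17 ± 0.15 (adjusted p = 0.0015) against the subcutis. The calls of Icos, Cd27, Ikzf3 and Cytip held in each of the 20 alternative settings. Ikzf3 and Cytip were picked for their high TPM after their values were seen.

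Ccr8 (chr9:120092114-120094906) had 2030 and 2270 CPM in dermal CCR6+ and 1930 and 1820 CPM in dermal Sca1+ ILCs, against 950, 1090 and 1130 CPM in epidermal and 1220, 1170 and 1540 CPM in subcutaneous ILCs. The dermal libraries lay above all flanking ones, by a small step: 0.93 ± 0.15 against the epidermis (adjusted p = 0.00353) and 0.61 ± 0.15 against the subcutis (adjusted p = 0.0358) on the log2 scale. The call was lost when any library other than epidermal replicate 1 or subcutaneous replicate 3 was left out, with an adjusted p of up to 0.141. Of 32 chemokine receptor and homing genes tested, Ccr8 peaked and Ccr9, the receptor of gut-homing lymphocytes, dipped, beside 0.629% and 0.494% of all genes. Ccr9 had no count in the 4 dermal libraries, against 0.976, 2.16 and 2.18 CPM in epidermal and 9.57, 17.2 and 2.78 CPM in subcutaneous ILCs. Of the other 30, 19 had a dermal mean between the flanking means, among them Ccr6 and Ccr2, as had 7498 (46.3%) of all genes tested.

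The TNF receptor superfamily had 21 genes tested, of which 3 peaked, beside 7 higher and 2 lower than in the epidermis and 5 higher and 1 lower than in the subcutis. Of all genes tested, 0.629% peaked, 8.42% were higher and 3.4% lower than in the epidermis, and 3.23% and 4.8% than in the subcutis. The median log2 fold change of the list was 0.25 against the epidermis and 0.15 against the subcutis, beside -0.03 and -0.09 over all genes. Besides Cd27, the peaks were Tnfrsf1b, the TNF receptor 2 gene, and Tnfrsf4, the OX40 gene. Tnfrsf1b (chr4:145213463-145246870) had 1340 and 1620 CPM in dermal CCR6+ and 653 and 597 CPM in dermal Sca1+ ILCs, against 404, 159 and 193 CPM in epidermal and 333, 415 and 215 CPM in subcutaneous ILCs. Both sorts lay above both flanks and the CCR6+ libraries were the highest, although the difference between the sorts was not called (log2 fold change 1.24 ± 0.43, adjusted p = 0.323). Sca1+ ILCs alone were not called against the epidermis (adjusted p = 0.0512) or the subcutis (adjusted p = 0.258). The log2 fold changes of Tnfrsf1b were 1.93 ± 0.34 against the epidermis (adjusted p = 0.00472) and 1.58 ± 0.34 against the subcutis (adjusted p = 0.018). This call was lost without subcutaneous replicate 1, subcutaneous replicate 3 or dermal CCR6+ replicate 2, with an adjusted p of up to 0.0695. Tnfrsf4 had 162 and 135 CPM in dermal CCR6+ but 59.8 and 39.3 CPM in dermal Sca1+ ILCs, against 58.3, 52.7 and 41.3 CPM in epidermal and 22.2, 24.2 and 26.3 CPM in subcutaneous ILCs. The Sca1+ libraries overlapped the epidermal ones, and the call against the epidermis (log2 fold change 0.76 ± 0.22, adjusted p = 0.0485) was lost in 9 of the 10 fits without 1 library, all but that without dermal Sca1+ replicate 2, with an adjusted p of up to 0.166.

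Among 34 cytokine receptor genes, Il21r, the IL-21 receptor gene (chr7:125603429-125633570), was the 1 peak, beside 0.629% of all genes tested. It had 324 and 350 CPM in dermal CCR6+ and 72.3 and 59 CPM in dermal Sca1+ ILCs, against 55.1, 32.2 and 25.9 CPM in epidermal and 20.4, 39.6 and 12.2 CPM in subcutaneous ILCs. The CCR6+ libraries stood far above the rest, and the lower Sca1+ library was just above the highest epidermal one. Tested alone, Sca1+ ILCs were not called against either flank (adjusted p = 0.291 for the epidermis and 0.142 for the subcutis). The log2 fold changes of Il21r were 1.98 ± 0.40 against the epidermis (adjusted p = 0.00925) and 2.63 ± 0.41 against the subcutis (adjusted p = 0.00404). The difference between the sorts, 2.36 ± 0.51, was not called (adjusted p = 0.0914).

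**Figure D2:**
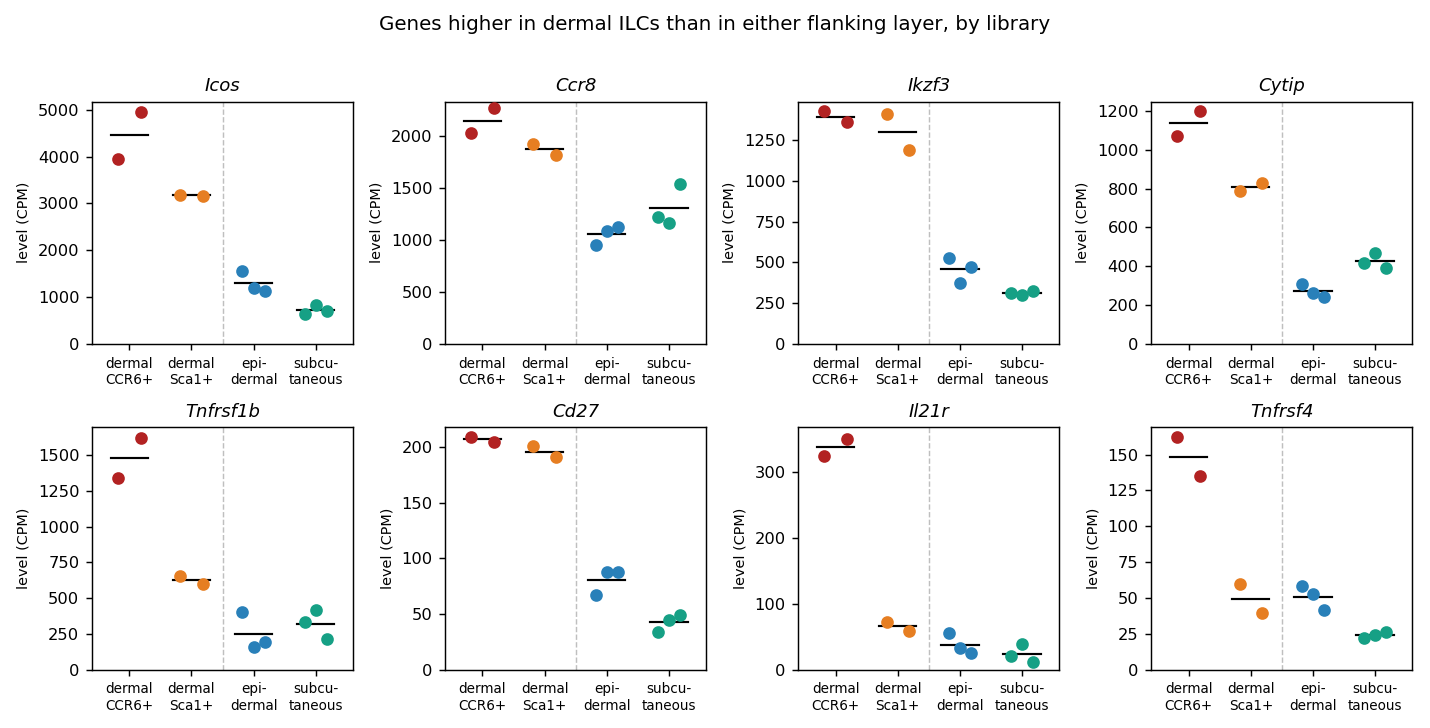
Level in CPM (vertical axes, from 0) of 8 lymphocyte genes that peaked, by library. Points are libraries, bars are group means, and the dashed line parts the dermal sorts from the flanking layers. Icos, Ikzf3, Cytip and Cd27 are high in both dermal sorts, whereas Il21r, Tnfrsf1b and Tnfrsf4 are highest in the CCR6+ sort.

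The promoters of the lymphocyte genes Il21r, Cytip and Tnfrsf1b and of the dipping cytokine gene Il13 are given as the stretches in which short factor motifs were counted. No promoter was on hand for Icos and Ikzf3. The sequences are from RefSeq (GRCm38.p6, the assembly of mm10), run 5′ to 3′ on the strand of the gene from 250 bases before to 50 after the RefSeq start, and capitals mark motif matches on either strand. The windows are chr7:125603179-125603478 (plus strand) for Il21r, chr2:58160073-58160372 (minus strand) for Cytip, chr4:145246821-145247120 (minus strand) for Tnfrsf1b and chr11:53634653-53634952 (minus strand) for Il13. The RefSeq start of Cytip lies inside the gene span given above, so its window is not that of the outermost start.
Il21r: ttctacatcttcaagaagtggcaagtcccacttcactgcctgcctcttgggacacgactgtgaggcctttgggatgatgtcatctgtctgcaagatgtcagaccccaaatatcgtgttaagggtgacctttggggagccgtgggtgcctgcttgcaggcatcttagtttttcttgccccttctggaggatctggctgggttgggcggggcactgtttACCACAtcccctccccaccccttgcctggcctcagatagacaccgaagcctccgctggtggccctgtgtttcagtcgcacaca
Cytip: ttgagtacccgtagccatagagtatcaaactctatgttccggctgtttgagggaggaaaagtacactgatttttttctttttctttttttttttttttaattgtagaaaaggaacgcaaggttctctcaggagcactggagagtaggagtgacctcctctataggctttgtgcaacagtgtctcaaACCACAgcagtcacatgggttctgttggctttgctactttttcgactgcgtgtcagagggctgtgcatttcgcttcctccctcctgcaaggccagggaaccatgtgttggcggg
Tnfrsf1b: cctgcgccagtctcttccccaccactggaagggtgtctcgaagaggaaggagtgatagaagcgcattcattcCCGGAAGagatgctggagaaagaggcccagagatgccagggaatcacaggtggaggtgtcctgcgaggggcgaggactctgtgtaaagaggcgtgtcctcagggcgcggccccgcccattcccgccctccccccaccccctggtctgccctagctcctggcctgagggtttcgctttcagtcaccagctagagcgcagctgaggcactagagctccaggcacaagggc
Il13: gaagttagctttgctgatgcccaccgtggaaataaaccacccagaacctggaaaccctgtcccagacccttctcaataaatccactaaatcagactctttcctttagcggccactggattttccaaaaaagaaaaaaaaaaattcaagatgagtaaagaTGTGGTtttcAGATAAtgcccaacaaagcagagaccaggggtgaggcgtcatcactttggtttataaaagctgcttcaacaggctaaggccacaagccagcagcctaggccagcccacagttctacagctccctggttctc
The capitals are the RUNX motif TGTGGT, or ACCACA on the other strand, in Il21r, Cytip and Il13, the ETS motif CCGGAAG in Tnfrsf1b, and the GATA motif AGATAA in Il13. AGATAA also stood in the promoter of the peak Ccr8, which is not printed. Promoters were on hand for 74 of the peaks, 60 of the dips and 11572 of the genes tested. TGTGGT stood in 16.2% of the promoters of peaks, 16.7% of those of dips and 15.6% of those of all genes. AGATAA stood in 5.41%, 8.33% and 8.44%, and CCGGAAG in 9.46%, 18.3% and 18.2%, in the same order. The AP-1 motif TGACTCA stood in 4.05%, 8.33% and 4.99%. Rarer were the NF-kB motif, in 1.35%, 1.67% and 0.57%, and the SREBP motif TCACNCCAC, in 1.35%, 0.0% and 1.41%, all in that order. CCGGAAG was thus listed in a smaller share of promoters of peaks than of all genes, with no test made.

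Transporters and metabolic regulators were also among the peaks. Slc7a5, a chain of the large neutral amino acid transporter, had 321 and 236 CPM in dermal CCR6+ and 181 and 189 CPM in dermal Sca1+ ILCs, against 49.1, 47.3 and 50.1 CPM in epidermal and 117, 85.2 and 89 CPM in subcutaneous ILCs. Its groups did not overlap, and it was higher by log2 fold changes of 2.22 ± 0.19 (adjusted p = 8.52e-05) against the epidermis and 1.23 ± 0.18 (adjusted p = 0.00311) against the subcutis. Slc16a1, the lactate transporter MCT1, averaged 133 ± 33.6 CPM in dermal (SD, n = 4), 34.4 CPM in epidermal and 58.4 CPM in subcutaneous ILCs, and Slc16a6, a related transporter, 95.3 ± 55.5, 24.6 and 36.1 CPM. Slc16a6 had 119 and 162 CPM in dermal CCR6+ but 48.7 and 50.6 CPM in dermal Sca1+ ILCs. For Slc16a6, Sca1+ ILCs alone were not called against the subcutis (adjusted p = 0.442). Sesn2, a stress-induced inhibitor of the growth kinase mTORC1, averaged 50.3 ± 3.32 CPM in dermal, 16.1 CPM in epidermal and 17.1 CPM in subcutaneous ILCs. These genes were picked after their values were seen. The calls of Slc7a5, Slc16a6 and Sesn2 held in all 20 alternatives, and that of Slc16a1 was lost in 7, among them the fits without subcutaneous replicate 1, subcutaneous replicate 3, dermal Sca1+ replicate 1 or dermal CCR6+ replicate 2 (adjusted p up to 0.108).

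Of 20 glycolysis and hypoxia genes, 2 peaked, Pfkp and Egln3, beside 0.629% of all genes tested. A dermal mean above both flanks was found in 11 of the 20, as in 3860 (23.8%) of all genes. Pfkp, which encodes a phosphofructokinase, a control point of glycolysis, had 317 and 383 CPM in dermal CCR6+ and 335 and 278 CPM in dermal Sca1+ ILCs, against 212, 174 and 187 CPM in epidermal and 169, 193 and 132 CPM in subcutaneous ILCs. Egln3, an oxygen-sensing prolyl hydroxylase induced in hypoxia, had 193 and 229 CPM in dermal CCR6+ and 81.7 and 105 CPM in dermal Sca1+ ILCs, against 68, 80.5 and 53.3 CPM in epidermal and 8.23, 14.5 and 9.28 CPM in subcutaneous ILCs. Both genes had every dermal library above every flanking library, for Egln3 by a narrow margin over the epidermis. Pfkp was higher by 0.78 ± 0.18 against the epidermis (adjusted p = 0.0203) and 0.99 ± 0.18 against the subcutis (adjusted p = 0.00943) on the log2 scale, and Egln3 by 1.06 ± 0.24 (adjusted p = 0.0185) and 3.72 ± 0.28 (adjusted p = 8.61e-05). Without epidermal replicate 3 or dermal CCR6+ replicate 2 both calls were lost, as were those of Pfkp without epidermal replicate 2 or dermal Sca1+ replicate 1 and of Egln3 without dermal Sca1+ replicate 2 (adjusted p up to 0.072 for Pfkp and 0.078 for Egln3). The glucose transporter gene Slc2a1 averaged 272 CPM in dermal, 112 CPM in epidermal and 150 CPM in subcutaneous ILCs without overlap, but its difference from the subcutis missed the threshold (adjusted p = 0.0558), and Slc2a1 counted as a peak in 10 of the 20 alternatives. The list summed to between 12560 and 17250 CPM in dermal libraries, against 10350 to 11930 CPM in epidermal and 9182 to 10840 CPM in subcutaneous libraries.

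The following peaks were picked after their values were seen. C9orf72, whose protein acts in endosome and autophagy control, had 171 and 149 CPM in dermal CCR6+ and 171 and 120 CPM in dermal Sca1+ ILCs, against 23.1, 13.1 and 15 CPM in epidermal and 58, 62.9 and 40.2 CPM in subcutaneous ILCs. Vgll4, a cofactor of TEAD transcription factors, had 465 and 346 CPM in dermal CCR6+ and 298 and 260 CPM in dermal Sca1+ ILCs, against 76.4, 154 and 80.5 CPM in epidermal and 114, 103 and 120 CPM in subcutaneous ILCs. Neither gene overlapped between dermal and flanking libraries, and both calls held in all 20 alternatives, as did that of Tcp11l2, at 291 ± 56.8 CPM in dermal (SD, n = 4), 62.5 CPM in epidermal and 111 CPM in subcutaneous ILCs. Socs1, an inhibitor of cytokine signalling, averaged 109, 66.4 and 62 CPM, Tob1, an antiproliferative factor, 160, 55 and 97.7 CPM, and the transcription factor Zeb1 108, 40.3 and 55.8 CPM in dermal, epidermal and subcutaneous ILCs. Those 3 peaks were less firm, each lost in 9 to 12 of the 20 alternatives, with an adjusted p of up to 0.0892 for Socs1, 0.0888 for Tob1 and 0.0915 for Zeb1 when 1 library was left out. The ILC transcription factors Rora and Nfil3 had all dermal libraries above all flanking ones, Rora at 2630 CPM in dermal, 847 CPM in epidermal and 2120 CPM in subcutaneous ILCs and Nfil3 at 444, 147 and 189 CPM. Neither was called against the subcutis (adjusted p = 0.248 for Rora and 0.11 for Nfil3), so neither counted as a peak, although Nfil3 did in 5 of the 20 alternatives.

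Over the high-level peaks chosen by TPM after seeing the values, the dermal mean was above both flanks for Tuba4a, an alpha tubulin (658, 344 and 383 CPM), Gna13, a G protein chain that restrains lymphocyte migration (1170, 427 and 581 CPM), Fam110a (520, 93.9 and 226 CPM), Sertad1 (306, 76.7 and 151 CPM), Sh2d2a, a T cell adaptor (475, 233 and 165 CPM), Myadm, a membrane protein (1190, 473 and 705 CPM), and Gem, a small GTPase (770, 240 and 185 CPM), each in the order dermal, epidermal and subcutaneous. Gem overlapped, with 392 CPM in the lowest dermal library and 425 CPM in epidermal replicate 1, and the others did not. When 1 library was left out, the call was lost in 7 of 10 fits for Gna13 (adjusted p up to 0.155), in 6 for Gem (up to 0.102), in 5 each for Tuba4a and Sertad1 (up to 0.0894 and 0.108), in 4 for Fam110a (up to 0.0909) and in 3 for Myadm (up to 0.0657). Myadm was higher in Sca1+ (1660 and 1440 CPM) than in CCR6+ libraries (908 and 749 CPM), a difference that was not called (adjusted p = 0.0652).

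The 15 peaks with the largest fold change over their nearer flank, among those with at least 20 CPM in the dermis and no overlap, included genes known from sebaceous glands and connective tissue. Scd1, a fatty acid desaturase abundant in sebaceous glands (chr19:44394455-44407879), had 341 and 346 CPM in dermal CCR6+ and 477 and 809 CPM in dermal Sca1+ ILCs, against 38.5, 115 and 117 CPM in epidermal and 66.9, 86 and 48.3 CPM in subcutaneous ILCs. Its dermal libraries lay well above all flanking ones, by log2 fold changes of 2.38 ± 0.40 (adjusted p = 0.00342) against the epidermis and 2.81 ± 0.41 (adjusted p = 0.00259) against the subcutis. Far2, which makes fatty alcohols for wax, had 50.7 and 34.5 CPM in dermal CCR6+ and 71.2 and 90.1 CPM in dermal Sca1+ ILCs, against 1.9, 4.32 and 14.2 CPM in epidermal and 2.81, 1.81 and 4.2 CPM in subcutaneous ILCs. Cidea, a lipid droplet protein, had 21.7 and 12.3 CPM in dermal CCR6+ and 35.3 and 35.6 CPM in dermal Sca1+ ILCs, against 0.271, 4.32 and 4.36 CPM in epidermal ILCs and 0, 0 and 0.0793 CPM in subcutaneous ILCs. All 3 were separated from the flanks, and their differences between the sorts were not called (adjusted p = 0.52 for Scd1, 0.717 for Far2 and 0.779 for Cidea). The calls of Scd1 and Far2 held in all 20 alternatives, while that of Cidea was lost in 8 of 10 fits without 1 library, all but those without epidermal replicate 1 or dermal CCR6+ replicate 2 (adjusted p up to 0.0855).

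Of the 16 sebocyte genes tested, 3 peaked (Scd1, Far2 and Cidea), beside 0.629% of all genes. Higher than in the epidermis were 7 of the 16, beside 8.42% of all genes. Against the subcutis, 6 were higher and 3 lower, beside 3.23% and 4.8% of all genes. The median log2 fold changes of the list were 2.39 and 1.96, beside -0.03 and -0.09 over all genes. The summed level of the list was 1404 and 1381 CPM in dermal CCR6+ and 1725 and 2212 CPM in dermal Sca1+ libraries, against 609.1, 872.4 and 930.9 CPM in epidermal and 1300, 1286 and 1161 CPM in subcutaneous libraries. Scd1 alone gave 341 to 809 CPM of the dermal sums and 38.5 to 117 CPM of the flanking ones. Without Scd1, the sums of the dermal CCR6+ libraries would lie below those of the subcutaneous libraries. Elovl3, a sebocyte elongase, was at 7.32 to 33.5 CPM in the dermal libraries and had no count in the subcutaneous ones, and Mgst1, a microsomal glutathione transferase of sebaceous glands, averaged 124 CPM in dermal, 19 CPM in epidermal and 72.6 CPM in subcutaneous ILCs, but each was called against 1 flank. Fa2h, which hydroxylates fatty acids, Cyp2g1 and Serpina3b were alike in pattern, with 34.4 to 63.4, 74.2 to 365 and 43.9 to 198 CPM in dermal ILCs, against 0.488 to 6.44, 0 to 14.6 and 0 to 8.57 CPM in epidermal and 0.555 to 3.75, 0 to 0 and 0 to 0.0793 CPM in subcutaneous ILCs. Cyp2g1 was at least 2495-fold higher than in subcutaneous ILCs, counted against 3 counts over that group, and its call was lost without epidermal replicate 3 and without each of the 4 dermal libraries in turn (adjusted p up to 0.126). The call of Fa2h was lost in 6 and that of Serpina3b in 2 of the 20 alternatives. Tgm5, a transglutaminase of the epidermis, averaged 54.2 CPM in dermal and 9.72 CPM in epidermal ILCs and had no count in subcutaneous ILCs, and its call held in all alternatives. The part of RNA from sebaceous gland cells in these differences was not tested.

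Connective tissue genes among the peaks were Coch, an extracellular matrix protein, Crabp1, a retinoic acid binding protein of dermal papilla fibroblasts, Fmod, a collagen-binding proteoglycan, and Ccn2, a matrix protein induced by TGF-β. Coch had 99.4 and 19.5 CPM in dermal CCR6+ and 74.1 and 169 CPM in dermal Sca1+ ILCs, against 0, 0 and 0.0495 CPM in epidermal and 1.2, 2.57 and 0 CPM in subcutaneous ILCs. Crabp1 had 39.3 and 30 CPM in dermal CCR6+ and 32.2 and 44.1 CPM in dermal Sca1+ ILCs, against no count in epidermal ILCs and 1.61, 0.556 and 0.634 CPM in subcutaneous ILCs. In both genes every dermal library lay above every flanking library, as the naming rule required, and Crabp1 was at least 643-fold higher than in epidermal ILCs. Against the subcutis the log2 fold changes were 6.05 ± 0.99 for Coch (adjusted p = 0.005) and 5.27 ± 0.57 for Crabp1 (adjusted p = 0.00132). Ccn2 had 48.2 and 20.1 CPM in dermal CCR6+ and 36.2 and 74.9 CPM in dermal Sca1+ ILCs, against 5.31, 4.53 and 5.65 CPM in epidermal and 4.89, 10.4 and 4.84 CPM in subcutaneous ILCs. The calls of Coch, Crabp1 and Ccn2 held in all 20 alternatives. Fmod averaged 26.4 CPM in dermal, 0.0165 CPM in epidermal and 2.64 CPM in subcutaneous ILCs, and its call was lost without subcutaneous replicate 1, subcutaneous replicate 3 or dermal Sca1+ replicate 2 (adjusted p up to 0.0957). Its lowest dermal library, CCR6+ replicate 2, was at 4.42 CPM, barely above subcutaneous replicate 2 at 4.38 CPM. For Fmod, CCR6+ ILCs alone were not called against the subcutis (adjusted p = 0.109). The summed fibroblast genes, at 1792 to 4909 CPM in dermal libraries, were lowest in dermal CCR6+ replicate 2 and highest in dermal Sca1+ replicate 2, as was Coch, and their part in these peaks was not tested.

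Most connective tissue genes did not peak. Of 17 fibroblast genes, 16 were higher than in the epidermis, but 1 was higher and 4 were lower than in the subcutis, and Crabp1 was the 1 peak of the list. Of 15 endothelial genes, 13 were higher than in the epidermis, and Ccl21a, a chemokine of lymphatic vessels whose gene has close copies, was the 1 peak. Of all genes tested, 8.42% were higher than in the epidermis, 3.23% higher and 4.8% lower than in the subcutis, and 0.629% peaked. Ccl21a had 6.67 and 8.91 CPM in dermal CCR6+ and 12.9 and 19.7 CPM in dermal Sca1+ ILCs, against no count in epidermal ILCs and 0, 0.278 and 0 CPM in subcutaneous ILCs. Its call was lost in 4 of the 20 alternatives. The remaining peaks of the naming rule were Shisa2, Serpina3n, a serine protease inhibitor, Enpp2, which makes the lipid mediator lysophosphatidic acid, and Cyp2f2. Their dermal means were 21.3, 24.6, 81.1 and 25 CPM, against 1.33, 0, 12.9 and 1.74 CPM in epidermal and 1.89, 4.39, 16.4 and 5.11 CPM in subcutaneous ILCs. The calls of these 4 were lost in 4 to 11 of the 20 alternatives.

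**Figure D3:**
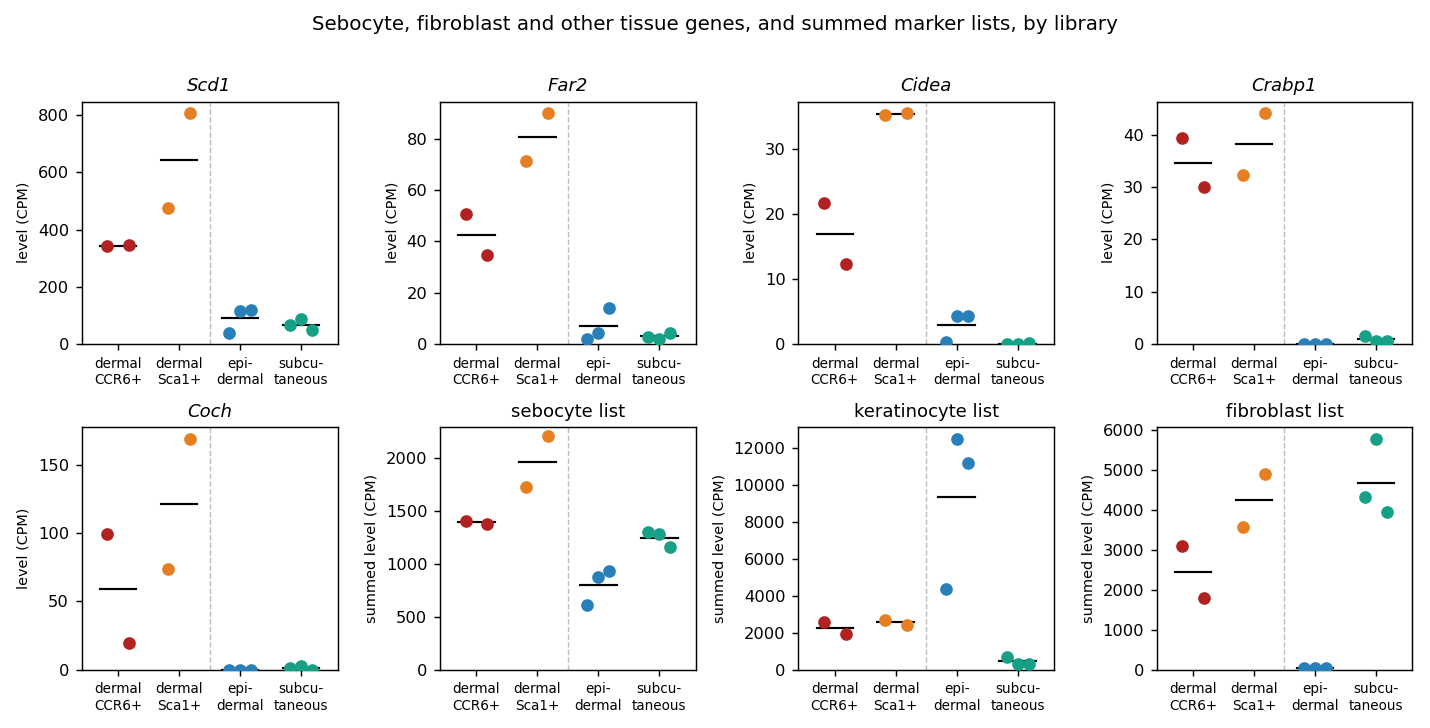
Level in CPM of 5 tissue genes that peaked and summed level in CPM of the sebocyte, keratinocyte and fibroblast lists (vertical axes, from 0), by library. Points are libraries and bars are group means. The sebocyte list is highest in the 4 dermal libraries, at 1381 to 2212 CPM, to which Scd1 alone gives 341 to 809 CPM. The keratinocyte list is intermediate in the dermis, and the fibroblast list is far above the epidermal level in all 4 dermal libraries.

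Of the 182 peaks and dips, 8 also differed between the dermal sorts. Among the peaks, 2 were called between the sorts (1.96% of the peaks, beside 0.296% of all genes higher and 0.346% lower in CCR6+ ILCs), Tnfrsf4 and Nmrk1, both higher in CCR6+ ILCs. Nmrk1, a kinase that feeds nicotinamide riboside into NAD, had 131 and 122 CPM in dermal CCR6+ and 22.4 and 15.4 CPM in dermal Sca1+ ILCs, against 10.5, 13.2 and 12.5 CPM in epidermal and 9.17, 7.65 and 14.4 CPM in subcutaneous ILCs. The Sca1+ libraries lay just above the flanks and the CCR6+ libraries far above them, and the difference between the sorts was 2.74 ± 0.37 on the log2 scale (adjusted p = 0.00948). For Nmrk1, Sca1+ ILCs alone were not called against the epidermis (adjusted p = 0.235) or the subcutis (adjusted p = 0.227). Tested 1 sort at a time against both flanks, CCR6+ ILCs alone passed in 66 of the 102 peaks (64.7%), Sca1+ ILCs alone in 38 (37.3%) and both in 21 (20.6%). The mean was higher in CCR6+ than in Sca1+ ILCs in 63 of the 102 peaks. The same counts over all genes tested are not given here, and the peaks were chosen by calls on these same dermal libraries, which favours such passes. These counts describe the peaks and do not show that either sort led them.

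Among the dips, 6 were called between the sorts, 4 higher (5.0%) and 2 lower (2.5%) in CCR6+ ILCs. Vipr2, the receptor of the neuropeptide VIP, which in ILCs raises IL-5 secretion, had 22.7 and 51.6 CPM in dermal CCR6+ but no count in dermal Sca1+ ILCs, against 48.5, 34.1 and 30.3 CPM in epidermal and 20.2, 8.55 and 11.8 CPM in subcutaneous ILCs. The CCR6+ libraries of Vipr2 thus lay at the level of the flanks or above, and the Sca1+ libraries lay below all of them. CCR6+ ILCs alone had log2 fold changes of -0.02 against the epidermis and 1.45 against the subcutis. The dermal mean of 18.6 CPM lay above the subcutaneous mean of 13.5 CPM. The call of Vipr2 as a dip thus rests on the Sca1+ sort with no count, averaged on the log scale, and does not hold for dermal ILCs as a whole. Wnt7b, a Wnt ligand, and Arhgef26 had counts in CCR6+ but not in Sca1+ libraries, with 6.74 and 3.37 CPM and 11.2 and 8.78 CPM in dermal CCR6+ ILCs, and no count of either in dermal Sca1+ ILCs. Clec12a, an inhibitory myeloid receptor, had 4.17 and 8.98 CPM in dermal CCR6+ and 0 and 0.0859 CPM in dermal Sca1+ ILCs. Cblc, a ubiquitin ligase, and Spice1, a centriole protein, were split the other way, with no count in dermal CCR6+ ILCs and 2.29 and 2.23 CPM and 9.09 and 4.13 CPM in dermal Sca1+ ILCs. Epidermal and subcutaneous means were 27.4 and 13.1 CPM for Wnt7b, 20.2 and 6.01 CPM for Arhgef26 and 3.83 and 25.7 CPM for Clec12a. They were 5.69 and 4.22 CPM for Cblc and 5.8 and 9.25 CPM for Spice1. Arhgef26 in CCR6+ ILCs (mean 10 CPM) thus lay above the subcutaneous mean. Clec12a in CCR6+ (6.57 CPM) and Spice1 in Sca1+ ILCs (6.61 CPM) lay above the epidermal mean. Both sorts of Wnt7b and Cblc lay below both flanks.

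Cytokine genes were among the dips. Il13 (chr11:53631324-53634702), the type 2 cytokine that acts on epithelium and fibroblasts, had 14.1 and 10.6 CPM in dermal CCR6+ and 23.7 and 13.1 CPM in dermal Sca1+ ILCs, against 44.3, 46 and 37.3 CPM in epidermal and 27.8, 40.1 and 29.3 CPM in subcutaneous ILCs. All dermal libraries lay below all flanking ones, as the naming rule required, by log2 fold changes of -1.50 ± 0.28 against the epidermis (adjusted p = 0.00694) and -1.10 ± 0.28 against the subcutis (adjusted p = 0.0396). The call was lost in 7 of 10 fits without 1 library, all but those without epidermal replicate 1, epidermal replicate 2 or dermal Sca1+ replicate 1 (adjusted p up to 0.148). Il5, the neighbouring type 2 cytokine gene, did not follow it, with 259 and 287 CPM in dermal CCR6+ and 1650 and 1780 CPM in dermal Sca1+ ILCs, against 142, 64.9 and 79 CPM in epidermal and 2810, 3130 and 2380 CPM in subcutaneous ILCs. Of 31 type 2 ILC genes, Icos and Ccr8 peaked and Il13 and Vipr2 dipped by the rule, beside 0.629% and 0.494% of all genes. Vipr2 was low in Sca1+ ILCs only, and its dermal mean CPM lay above the subcutaneous one. A dermal mean between the flanking means was found in 20 of the 31, beside 46.3% of all genes tested.

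Il1rn, the gene of the IL-1 receptor antagonist (chr2:24336853-24351494), had 4.75 and 5.94 CPM in dermal CCR6+ and 5.47 and 18.7 CPM in dermal Sca1+ ILCs, against 19.6, 68.4 and 65 CPM in epidermal and 75.8, 121 and 26.2 CPM in subcutaneous ILCs. It dipped without overlap, as the naming rule required, by -2.67 ± 0.60 (adjusted p = 0.017) and -3.21 ± 0.61 (adjusted p = 0.0104) on the log2 scale, although dermal Sca1+ replicate 2 came close to epidermal replicate 1. That call was lost without epidermal replicate 2, epidermal replicate 3, dermal Sca1+ replicate 1 or dermal CCR6+ replicate 1 (adjusted p up to 0.06). Il33, an alarm cytokine of epithelium and stroma, had 4.3 and 3.04 CPM in dermal CCR6+ and 6.48 and 9.63 CPM in dermal Sca1+ ILCs, against 9.32, 20.6 and 18.3 CPM in epidermal and 36.6, 23.5 and 16.3 CPM in subcutaneous ILCs. Il18, an alarm cytokine of the same family, had 0.321 and 0 CPM in dermal CCR6+ and 0 and 0.344 CPM in dermal Sca1+ ILCs, against 1.57, 16.1 and 18.4 CPM in epidermal and 3.75, 7.3 and 3.73 CPM in subcutaneous ILCs. Il18 did not overlap between dermal and flanking libraries and Il33 did, in epidermal replicate 1. The dips were lost in 7 of the 10 fits without 1 library for Il18 and in 8 for Il33 (adjusted p up to 0.106 for Il18 and 0.124 for Il33). Of the 37 cytokine and chemokine genes, Il18, Il33 and Il13 were the 3 dips, while 16 were higher than in the epidermis and 17 lower than in the subcutis. Of all genes tested, 0.494% dipped, 8.42% were higher than in the epidermis and 4.8% lower than in the subcutis.

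Further dips with moderate levels encode regulatory proteins. Stat2, a transducer of type I interferon signals, had 6.74 and 10.6 CPM in dermal CCR6+ and 20.3 and 11.3 CPM in dermal Sca1+ ILCs, against 36.5, 29 and 26.3 CPM in epidermal and 38.9, 28.3 and 30 CPM in subcutaneous ILCs. Dtx3l, a ubiquitin ligase of the interferon and DNA damage responses, had 17.9 and 25.6 CPM in dermal CCR6+ and 23.5 and 21.1 CPM in dermal Sca1+ ILCs, against 51.3, 40 and 39.9 CPM in epidermal and 56.9, 84.9 and 54.2 CPM in subcutaneous ILCs. Both dipped without overlap, as the naming rule required. Stat2 was the 1 dip among 25 interferon response genes, beside 0.494% of all genes. Of the 25, 19 had a dermal mean between the flanking means, beside 46.3% of all genes tested. The call of Stat2 was lost in 3 of the 10 fits without 1 library (without subcutaneous replicate 1, dermal CCR6+ replicate 1 or dermal Sca1+ replicate 2, adjusted p up to 0.0749), and that of Dtx3l in 5 (without epidermal replicate 1 or 3, dermal CCR6+ replicate 1 or either dermal Sca1+ replicate, adjusted p up to 0.0869). Usp8, an endosomal deubiquitinase, had 9.43 and 9.11 CPM in dermal CCR6+ and 18.4 and 22 CPM in dermal Sca1+ ILCs, against 57.4, 34 and 45.1 CPM in epidermal and 59.3, 31.9 and 40 CPM in subcutaneous ILCs. Usp8 was lower by -1.73 ± 0.28 (adjusted p = 0.00306) and -1.68 ± 0.28 (adjusted p = 0.00584) on the log2 scale, and its call alone among the 15 dips of the naming rule held in all 20 alternatives. Rnf20, which ubiquitinates histone H2B, Snx6, a retromer-associated sorting protein, Srp72 of the signal recognition particle, the transcription factor Sp3, the RNA methyltransferase Nsun2 and Dennd2d, a Rab exchange factor, dipped by smaller steps, with log2 fold changes between -0.61 and -1.12 against the epidermis and between -0.66 and -1.60 against the subcutis. Each of these 6 calls was lost in 7 to 15 of the 20 alternatives.

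Among the dips at lower levels were genes known from epithelial cells. F3, the tissue factor that starts coagulation, had 3.14 and 0 CPM in dermal CCR6+ and 1.65 and 1.63 CPM in dermal Sca1+ ILCs, against 4.55, 29.7 and 43 CPM in epidermal and 46, 40.7 and 35.9 CPM in subcutaneous ILCs. Krt80, an epithelial keratin, had 9.69 and 10.3 CPM in dermal CCR6+ and 24.5 and 16.8 CPM in dermal Sca1+ ILCs, against 56.2, 94.5 and 92.8 CPM in epidermal and 39, 27.9 and 51.4 CPM in subcutaneous ILCs. Both lay below every flanking library, as did St14, an epithelial membrane protease (9.24, 29.5 and 63.4 CPM in dermal, epidermal and subcutaneous ILCs), and Hcar2, the niacin and butyrate receptor (5.04, 34.7 and 20.2 CPM in the same order). The naming rule required this of F3, Krt80, St14 and Hcar2. When 1 library was left out, the call of F3 was lost in 5 of 10 fits (adjusted p up to 0.081), that of St14 in 6 (adjusted p up to 0.128), that of Hcar2 in 8 (adjusted p up to 0.174) and that of Krt80 in 1, without subcutaneous replicate 3 (adjusted p = 0.0525). The tight junction genes Cldn3, Cldn7 and Cgn had no count in any dermal library, against 0.379 to 3.2, 0.108 to 1.19 and 5.95 to 8.99 CPM in epidermal and 23.2 to 80.3, 16.9 to 59.8 and 1.39 to 15.3 CPM in subcutaneous ILCs. Counted against 3 counts over the dermal libraries, Cldn3 was at least 34-fold lower in dermal than in epidermal ILCs and at least 967-fold lower than in subcutaneous ILCs. The sodium channel gene Scnn1a, the motor gene Myo5b and Tgm1, the transglutaminase of the cornified envelope, had at most 0.509, 0.172 and 3.61 CPM in a dermal library, against at least 4.88, 1.52 and 5.69 CPM in each epidermal and 3.48, 5.95 and 10.2 CPM in each subcutaneous library. These 6 genes were picked after their values were seen. Of the 20 alternatives, the call of Tgm1 was lost in 9, that of Cldn7 in 6 and those of Cldn3 and Cgn in 1 each, while those of Scnn1a and Myo5b held in all. The keratinocyte list did not share the pattern: of its 18 genes, 17 had a dermal mean between the flanking means, beside 46.3% of all genes tested.

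The other dips on the gene lists were Themis, a T cell selection gene, Mmp9, a matrix protease of neutrophils and macrophages, and the haemoglobin gene Hbb-bs, which has a close copy. Themis had no count in the 4 dermal libraries, against 1.9, 2.58 and 4.66 CPM in epidermal and 1.14, 3.69 and 1.51 CPM in subcutaneous ILCs. Mmp9 had 36.5 and 26.1 CPM in dermal CCR6+ and 11.3 and 11.8 CPM in dermal Sca1+ ILCs, against 50.2, 27.9 and 47.7 CPM in epidermal and 42.8, 48.5 and 59.5 CPM in subcutaneous ILCs. Hbb-bs had 6.29 and 0 CPM in dermal CCR6+ and no count in dermal Sca1+ ILCs, against 2.93, 6.48 and 20.4 CPM in epidermal and 346, 156 and 301 CPM in subcutaneous ILCs. Themis alone was separated, and Mmp9 and Hbb-bs overlapped through dermal CCR6+ replicate 1. The dip of Hbb-bs was lost in 7 and that of Mmp9 in 5 of the 10 fits without 1 library (adjusted p up to 0.142 for Hbb-bs and 0.0773 for Mmp9). Ifitm6, an interferon-induced membrane protein gene, had 2.05 and 3.23 CPM in dermal CCR6+ and no count in dermal Sca1+ ILCs, against 3.41, 29.5 and 24.6 CPM in epidermal and 6.23, 10.7 and 8.25 CPM in subcutaneous ILCs, and its call held in all alternatives.

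**Figure D4:**
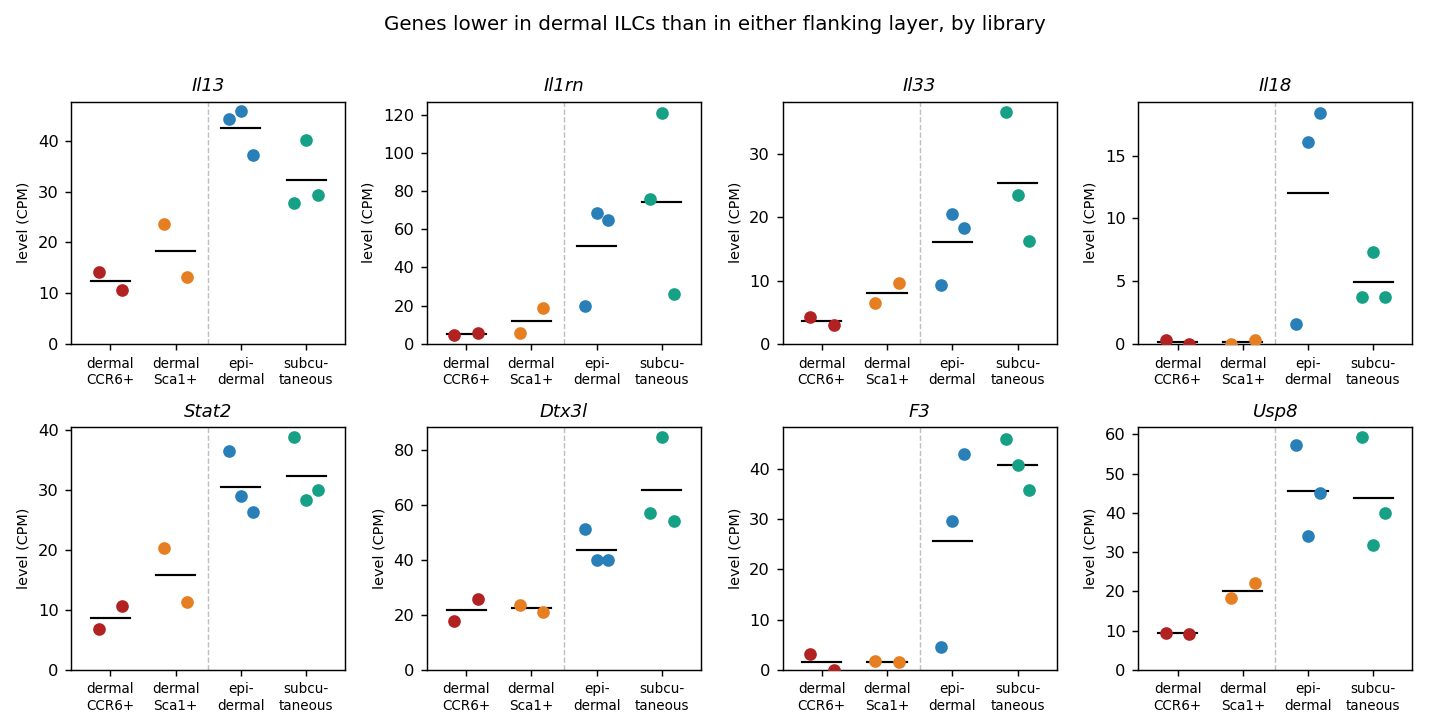
Level in CPM (vertical axes, from 0) of 8 genes that dipped, by library. Points are libraries and bars are group means. The dermal libraries lie below the flanking ones in each panel except that of Il33, where they overlap, and for Il13 they lie at 10.6 to 23.7 CPM against 27.8 to 46 CPM in the flanking libraries. For all genes shown but Il33 and Il18, the naming rule required this separation.

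Across the 37 gene lists, many had medians of opposite sign against both flanks. The median log2 fold change was above 0 against the epidermis and below 0 against the subcutis for type 2 ILC genes (0.48 and -0.76), cytokines and chemokines (1.33 and -2.23), killer cell lectin-like receptors (0.83 and -2.57), interferon response genes (1.02 and -1.81), immediate early genes (0.86 and -0.37) and macrophage and dendritic cell genes (5.93 and -3.6). The keratinocyte list ran the other way (-2.37 and 4.59). Lists above 0 against both flanks included sebocyte genes (2.39 and 1.96), hair follicle genes (2.24 and 1.02), T cell genes (0.19 and 0.54), circadian clock genes (0.4 and 0.39) and ILC identity genes (0.38 and 0.19). Cytosolic ribosomal protein genes had medians of -0.07 and -0.32, and 27 of the 40 had a dermal mean below both flanks, as had 4586 (28.3%) of all genes tested. The ribosomal protein differences were not past the threshold against either flank. The list medians are descriptions with no test.

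**Figure D5:**
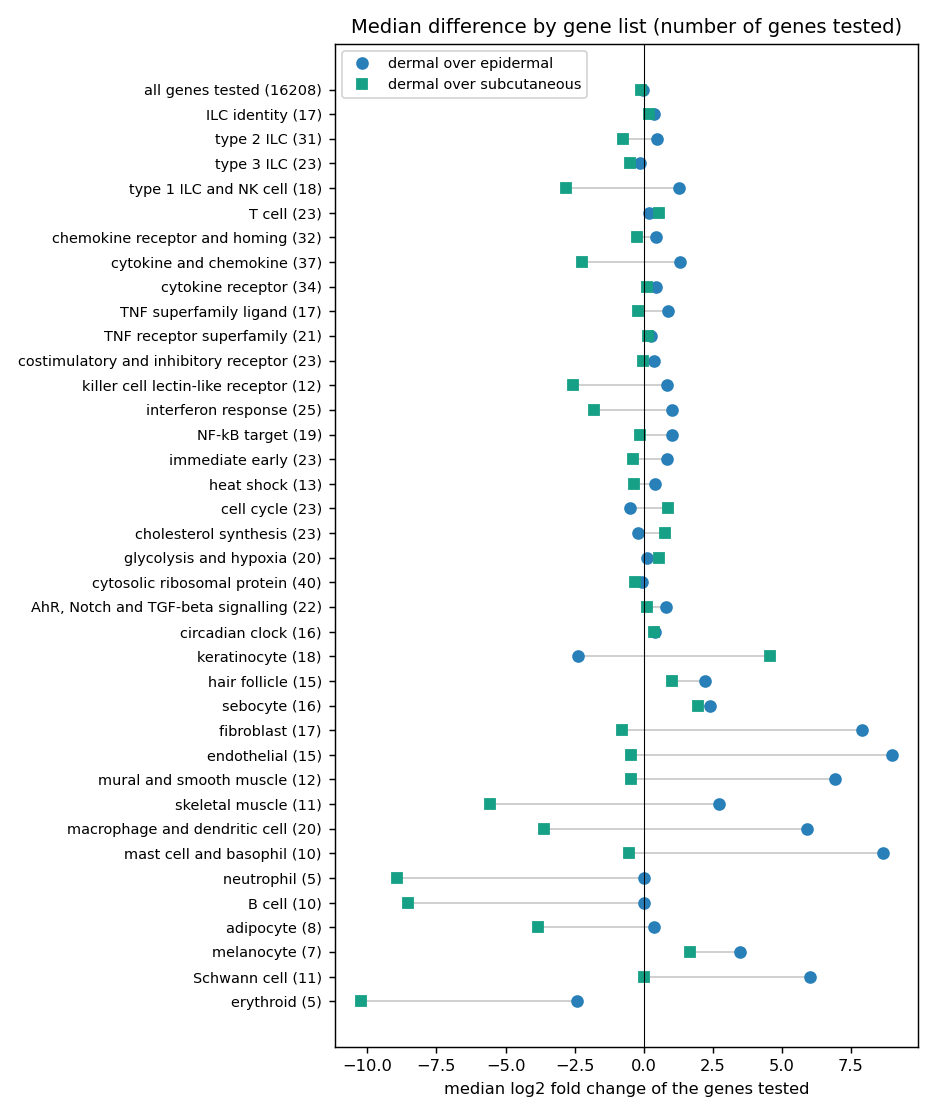
Median log2 fold change of each gene list, with the number of genes tested in brackets. Circles are dermal over epidermal and squares dermal over subcutaneous ILCs. Many lists have their circle and square on opposite sides of 0, while the sebocyte and hair follicle lists lie to the right of 0 for both.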

How the data were processed

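RNA from sorted skin ILCs was made into libraries with SMART-Seq and Nextera XT kits, per the labels' protocols, which do not mark strand. Trimmomatic, STAR, RSEM and mm10 are named in the submitters' processing notes. Versions, order, settings and annotation were not given in the sources used here. Every deposited table holds, per the file headers, the authors' RSEM expected counts, TPM and FPKM for 47643 gene IDs. FPKM values deposited by the authors were not used. Between 7.2% and 8.39% of genes per library had an expected count that was not whole, and the counts were rounded before testing. Symbols and positions came from an annotation that matched 47224 IDs.

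Genes were filtered with filterByExpr (count minimum 10), leaving 16208, scaled by TMM and tested with edgeR 4.0.16 in R 4.3.3 as 1 model with 4 groups. Alternatives used limma 3.58.1 on log2(TPM + 1) with the authors' TPM, and DESeq2 1.42.0, among others. The scripts were tested on simulated data. Per direction, the 15 named genes passed both flank tests without overlap, reached a mean of 20 CPM (dermal for peaks, lower flank for dips) and had the largest smaller fold change. List members that peaked or dipped were named too, and other genes were chosen after their values were seen. The comparison and the lists were chosen with earlier results of these data known. Reads of antisense or overlapping genes and of near-identical copies, as in the Serpina3, Cyp2, Ccl21 and haemoglobin families, cannot be told apart with certainty. Folds against a group at 0 use 3 counts over that group. Counting limits cover counting error only. Values of 1 gene were left out.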

Additional observations from a re-analysis of the deposited data

Results flagged for a closer look

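In 214 groups of dermal or flanking values tested for a value far from the rest, 20 stood out, and the nominal rate of the test is about 1 in 20 groups. That rate assumes values of 1 kind. Here the dermal values mix both sorts and the flanking values mix both layers, so the count cannot be set against it. In the dermal libraries, Sca1+ replicate 2 was apart for Il1rn (18.7 CPM, nearest 5.94), Gna13 (1020 CPM, nearest 1210), Rora (2940 CPM, nearest 2560), Ifi206 (8.34 CPM, nearest 2.29) and Tgm1 (3.61 CPM, nearest 0.321). Sca1+ replicate 1 was apart for Snx6 (58.3 CPM, nearest 44.6), Muc15 (6.8 CPM, nearest 0.602) and Scnn1a (0.509 CPM, the others at 0), and CCR6+ replicate 1 for Hbb-bs (6.29 CPM, the others at 0).

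Among the flanking libraries, epidermal replicate 1 was apart for Gem (425 CPM, nearest 242), Socs1 (74.7 CPM, nearest 64.2) and Cd226 (97.2 CPM, nearest 64.2). Epidermal replicate 2 was apart for Cyp2g1 (14.6 CPM, nearest 4.16) and Cers4 (212 CPM, nearest 179), and epidermal replicate 3 for Far2 (14.2 CPM, nearest 4.32). Subcutaneous replicate 1 was apart for St14 (113 CPM, nearest 41.6), Trp53inp2 (83.6 CPM, nearest 48.8) and Scnn1a (30.3 CPM, nearest 9.4), and subcutaneous replicate 2 for Ccn2 (10.4 CPM, nearest 5.65) and Ccl21a (0.278 CPM, the others at 0).

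The dermal sorts differed by the quasi-likelihood test of edgeR, adjusted after Benjamini-Hochberg, in 10 of the named genes, given as log2 fold changes of CCR6+ over Sca1+ ILCs. Those higher in CCR6+ ILCs were Vipr2 (12.15, adjusted p = 0.00228), Arhgef26 (10.26, adjusted p = 0.0119), Wnt7b (9.28, adjusted p = 0.0129), Clec12a (7.17, adjusted p = 0.0217), Nmrk1 (2.74, adjusted p = 0.00948) and Tnfrsf4 (1.58, adjusted p = 0.0401). Those lower were Spice1 (-9.66, adjusted p = 0.0135), Cblc (-8.12, adjusted p = 0.045), Ly6a (-3.16, adjusted p = 0.00512) and Il5 (-2.65, adjusted p = 0.00772). Ly6a encodes the sort marker Sca1. The values of Vipr2, Arhgef26, Wnt7b, Cblc and Spice1 are fitted against a sort with no count and are no measure of size. That of Clec12a rests on 1 count in the Sca1+ libraries and is no firm measure of size either.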

How the results depend on the processing

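Counts are given here in the order pooled higher, pooled lower, lower than epidermis, higher than subcutis, lower than subcutis, peaks, dips, peaks or dips that differ between sorts, separated peaks and separated dips. DESeq2 gave 1208, 700, 997, 893, 1290, 185, 199, 56, 154 and 98, and its calls held 101 of the 102 peaks and 80 of the 80 dips. No filter gave 1342, 671, 1006, 825, 1663, 183, 253 and 68 for the first 8. limma on log2(TPM + 1) gave 442 pooled lower, 947 lower than epidermis, 857 higher than subcutis, 162 peaks, 45 dips and 33 separated dips. With 2 pooled groups, 17 were higher and 1 lower. A minimum absolute log2 fold change of 1 left 63 peaks and 61 separated peaks. Size factors by RLE, a minimum of 5 CPM in 2 libraries and robust dispersions moved no count by over 1.5 times.

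Deviations of same-numbered libraries from their group means correlated at -0.038 to 0.114 over 13 pairs, with 1 over 0.1. The deviations of both libraries of a dermal sort mirror each other, so the pairs are not independent. These correlations cannot settle whether libraries share animals or batches. The replicate block by title number gave 373, 80, 297, 333, 461, 52, 34, 4, 49 and 24. The block by runs of name numbers gave 124 pooled lower, 38 dips, 4 that differ between sorts and 25 separated dips. Libraries of the runs with all 4 groups gave 487 lower than subcutis, 40 dips and 34 separated dips.

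Leaving out 1 library at a time gave 479 to 793 pooled higher, 113 to 231 pooled lower, 978 to 1244 higher and 269 to 518 lower than epidermis, and 301 to 567 higher and 401 to 875 lower than subcutis. It gave 47 to 108 peaks, 42 to 150 dips, 4 to 41 that differ between sorts, 47 to 102 separated peaks and 33 to 74 separated dips, and 76.0% to 82.4% of layer genes with an intermediate dermis. Of the 96 named peaks and dips, 25 kept their call in each of 20 settings, 71 lost it in at least 1, and 0 changed sign. The cause of these changes was not tested. With 3 counts worth 0.1656 to 0.258 CPM, dips with dermal values near 0 give bounds only.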
